A study of Rattus norvegicus with 2 samples.

Results

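Genes of cholesterol and fatty acid synthesis were compared between undifferentiated C6 glioma and small molecule-induced cells (SMiNs) on 2 whole-transcript rat arrays, 1 for each condition. The 36 genes were a fixed list of pathway members, chosen with earlier results of these data known. Of these, 33 were paired with a probe set that carried their symbol alone, out of 18166 named genes in the series. They comprised 15 of 17 sterol enzymes, 13 of 14 fatty acid enzymes and all 5 listed regulators. Hmgcs1, Mvk and Fasn had no such probe set, so that their signals were not analysed here. Every measured member had exactly 1 probe set. C6 is an established rat glial tumor line, for which the methods give a serum-containing medium. They do not state the medium of the undifferentiated cells on the array. The SMiN array held C6 cells at day 35 of culture with 20 μM CHIR99021, an inhibitor of the kinase GSK3, and 100 μM forskolin, an activator of adenylyl cyclase. The methods place this culture on Matrigel in a serum-free neural medium with BDNF and GDNF, whereas the sample labels state the same serum medium and treatment for both samples. The methods' conditions were used, with the undifferentiated cells taken as untreated and in the serum-containing medium. Medium, small molecules and time in culture therefore cannot be told apart. With 1 array per condition there is no spread between replicates and no test, and each difference describes this pair of arrays.

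Cholesterol is built from acetyl-CoA through mevalonate, isoprenoid diphosphates, squalene and lanosterol. Fatty acids are built from acetyl-CoA and malonyl-CoA, and are then elongated, desaturated and activated as acyl-CoA esters. Both routes are under the sterol regulatory element-binding proteins (SREBPs), membrane-bound factors that Scap escorts to the Golgi for cleavage and that Insig proteins retain in the endoplasmic reticulum when sterols are plentiful. Brain cells make their own cholesterol, since lipoprotein cholesterol hardly passes from blood into brain.

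Each deposited value is the log2 signal of a probe set. Since signal depends on the probes, a gene was compared with itself across the arrays and never with another gene. To mark signals that could be background, a floor was taken from 1360 probe sets of odorant and pheromone receptors, as their 95th percentile, 4.79 for C6 glioma and 4.89 for SMiNs. All 33 measured members were at or above the floor on both arrays. A gene was counted as different when its signal differed by at least 2-fold. By this count, 8.12% of all 18166 named genes were lower in SMiNs and 4.27% were higher. For the 11306 genes that reached the floor on either array, these shares were 12.9% and 5.75%. Among 3373 named genes with a mean signal between the lower and upper quartiles of the members, 7.21 and 9.39, they were 17.9% and 7.56%, and the median difference was -0.29, where a difference is the SMiN log2 signal minus that of C6 glioma.

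The cell identity markers were checked on the same arrays. All 7 glial and progenitor markers were at or above the floor in C6 glioma and 6 of 7 in SMiNs. By 2-fold or more, 4 of 7 were lower in SMiNs, and their log2 summed signal, to which Vim contributed most, was 12.8 and 11.7. S100b was 1.72-fold higher, and Olig2 was equal. For 7 neuron markers the summed signal was 9.07 and 9.39, with 2 of them below the floor on both arrays and only Tubb3 at least 2-fold higher in SMiNs. Of 6 macrophage and microglia markers, 5 lay below the floor on both arrays. Oligodendrocytes make much cholesterol for myelin, and of 5 measured markers of these cells 2 were at or above the floor in C6 glioma and 3 in SMiNs. None differed by 2-fold, Ugt8 being 1.85-fold higher from below the floor, and their summed signal, much of it near the floor, was 7.09 and 7.30. Of 6 markers of dividing cells, 5 were lower in SMiNs by 2-fold or more, and their summed signal was 11.9 in C6 glioma and 10.4 in SMiNs. The part of cell division in the differences below was not tested. In these bulk cultures, fewer cells of a type and less RNA per cell cannot be told apart.

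Sterol enzymes differed unevenly along the pathway. Of 15 measured enzymes, 3 were at least 2-fold lower in SMiNs (20.0%), namely Fdft1, Lss and Nsdhl, and 1 was at least 2-fold higher (6.67%), Idi1. This share of lower enzymes was close to the 17.9% among genes of similar signal. The median difference of the sterol enzymes was -0.64, a 1.56-fold lower signal. At a 1.5-fold threshold, 8 of 15 were lower (53.3%) and 1 was higher (6.67%). At that threshold 26.1% of genes at or above the floor were lower and 13.0% higher, and over all named genes 16.7% were lower and 11.3% higher. Among genes of similar signal 34.6% were at least 1.5-fold lower.

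**Figure D1:**
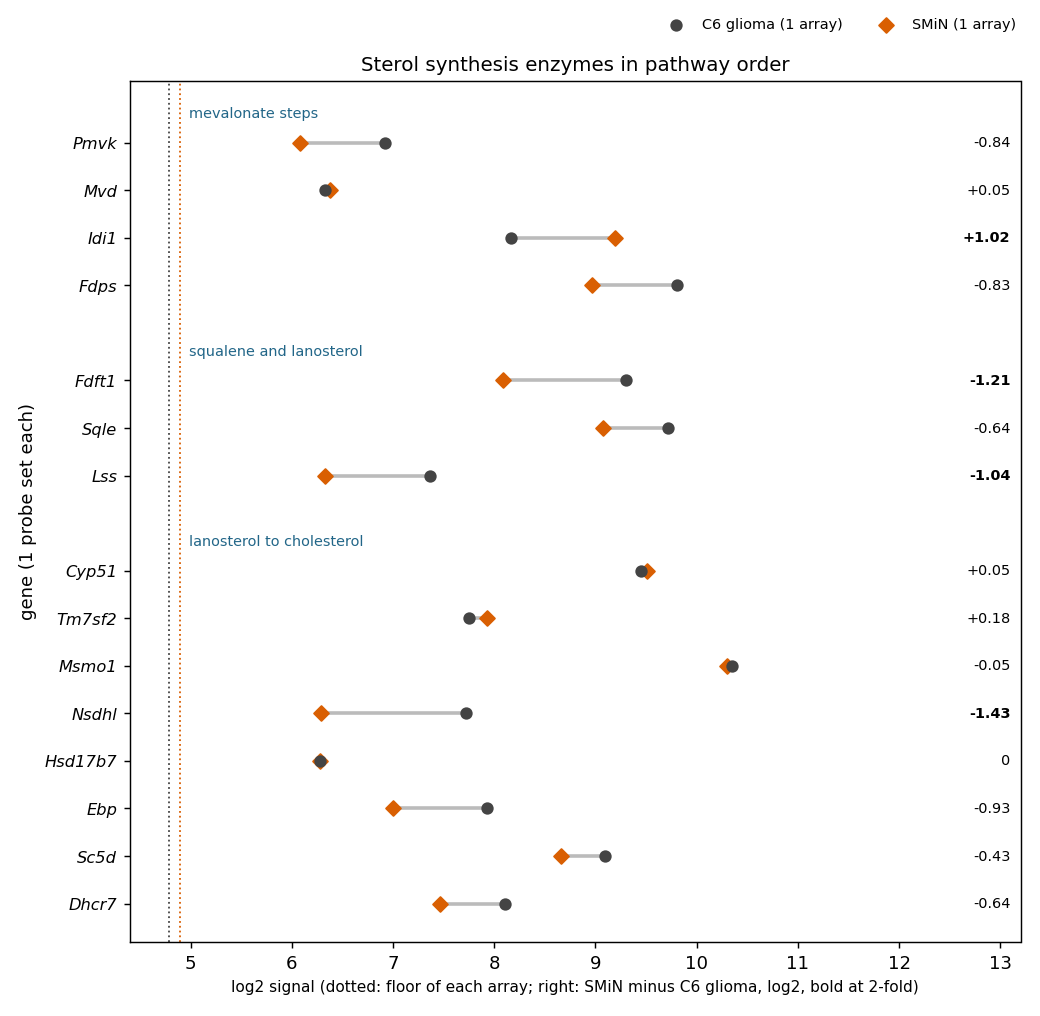
Log2 signal of the 15 measured sterol enzymes in pathway order, with 1 array per condition (circles, C6 glioma; diamonds, SMiN), the floor of each array as dotted lines and the log2 difference at the right. The 3 enzymes of squalene and lanosterol formation were all lower in SMiNs, with differences from -1.21 to -0.64, whereas Idi1 was higher by 1.02.

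The mevalonate steps did not move as a block. Idi1, the isomerase that interconverts the isoprenoid building blocks isopentenyl and dimethylallyl diphosphate, had a log2 signal of 8.17 on the C6 array and 9.19 on the SMiN array, 2.03-fold higher. Of the 11306 genes at or above the floor, 622 (5.50%) were higher by at least as much. Fdps, farnesyl diphosphate synthase, acts on the products of Idi1 and had signals of 9.80 and 8.97, 1.78-fold lower in SMiNs. The differences of Idi1 and Fdps were therefore 3.62-fold apart. Pmvk, which phosphorylates phosphomevalonate, was 1.79-fold lower, with 6.92 in C6 glioma and 6.08 in SMiNs. Mvd, the decarboxylase that follows it, had 6.33 and 6.37, a difference of 0.05. Of the 4 measured mevalonate enzymes, 2 were thus lower by more than 1.5-fold, 1 was higher, and Mvd differed by so little that its sign turned with median centring (-0.01).

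In the deposited values, the 3 enzymes that commit isoprenoids to sterols were all lower in SMiNs by more than 1.5-fold. Among genes of similar signal, 34.6% were at least 1.5-fold lower. Fdft1, squalene synthase, which joins a pair of farnesyl groups, had a log2 signal of 9.31 on the C6 array and 8.09 on the SMiN array, 2.32-fold lower. Sqle, the squalene monooxygenase and a control point of the pathway, had 9.72 and 9.07, 1.56-fold lower. Under quantile normalization Sqle fell just short of 1.5-fold (-0.577). Lss, which cyclizes the epoxide to lanosterol, had 7.37 and 6.33, 2.06-fold lower. Of these 3 enzymes, Fdft1 and Lss passed 2-fold, and Lss did so only narrowly.

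From lanosterol onward, the differences were mixed. Nsdhl, a dehydrogenase that helps remove the methyl groups of lanosterol, had a log2 signal of 7.72 on the C6 array and 6.29 on the SMiN array. It was 2.69-fold lower, the largest difference among the sterol enzymes, and 682 of 11306 genes (6.03%) were as low or lower. The enzymes that act beside it in the same demethylation differed little. Msmo1, the methylsterol monooxygenase, had 10.35 and 10.30, and Hsd17b7, the ketoreductase, had 6.28 on both arrays. Exactly equal values occurred for 7312 of 36685 probe sets (19.9%), so that the equal value of Hsd17b7 was not read as an unchanged transcript. Cyp51, the lanosterol demethylase of the cytochrome P450 family, had 9.45 in C6 glioma and 9.50 in SMiNs. Tm7sf2, a sterol reductase, had 7.76 and 7.93, 1.13-fold higher. Lbr, the lamin B receptor of the nuclear envelope, catalyzes the same reduction and is no member of the list of 36. Its signal was 8.14 and 6.02, 4.35-fold lower in SMiNs.

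The enzymes of the last steps were all lower by less than 2-fold. Ebp, the sterol isomerase, had a log2 signal of 7.93 on the C6 array and 7.0 on the SMiN array, 1.91-fold lower and just short of the threshold. Sc5d, which desaturates lathosterol, had 9.09 and 8.66, 1.35-fold lower. Dhcr7, which reduces dehydrocholesterol to cholesterol, had 8.10 and 7.46, 1.56-fold lower. In all, 10 of 15 sterol enzymes (66.7%) were lower in SMiNs by any amount, 4 were higher and 1 was equal, beside 54.1% lower of the genes at or above the floor and 64.4% of genes of similar signal. With median centring 13 of 15 were lower. This centring moved every difference by -0.06, so that the 1364 exactly equal genes among the 11306 turned lower too. The 54.1% and 64.4% were not recounted under it.

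Promoter sequences were examined because most of these genes share SREBP control and the treatment acts on cAMP and GSK3 signaling. RefSeq promoter windows (rat build GRCr8, 250 bases before to 50 after each start) were found for 30 of the 36 members, without Pmvk, Fdft1, Sqle, Acaca, Fasn and Elovl6. Of these 30, 28 had a measured signal, and the others were the sterol enzymes Hmgcs1 and Mvk. Each window was searched on both strands for CACCCCAC (the core of the classical sterol regulatory element), CACGTG (an E-box), CCAAT (bound by NF-Y, a partner of SREBPs), GGGCGG (a GC box), TGACGTCA (the full cAMP response element) and ATCAAAG (a TCF/LEF motif, the factors that act with beta-catenin). CACGTG and TGACGTCA read the same on both strands, and no matches overlapped in the windows printed here. A match is a description of the letters and not a bound site. Only these exact letters were searched, so that a window without a match is not shown to lack the element. The CCAAT box was found in 12 of 14 sterol enzyme promoters (85.7%), beside 37.5% of all 33469 windows and 37.5% of the 10143 windows of genes at or above the floor. The GC box was likewise found in 12 of 14 (85.7%), beside 33.1% and 60.1% of these windows. The sterol regulatory element core was found in 1 of 14 (7.14%), in Ebp, beside 2.70% and 2.45%. The full cAMP response element was found in 0 of 14, beside 1.83% and 3.08%, and the TCF/LEF motif in 1 of 14, Mvk, beside 3.63% and 2.46%. The E-box was found in 1 of 14 sterol enzyme promoters, Sc5d, beside 6.42% and 9.46%.

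The promoters of Idi1 and Nsdhl are printed because these sterol enzymes differed most in opposite directions, and that of Ebp because it alone held the sterol regulatory element core. Capitals mark the searched motifs, and CCAAT appears as ATTGG on the other strand. The Idi1 window lies at chr17:66547475-66547774 on the minus strand, that of Nsdhl at chrX:155817110-155817409 on the plus strand and that of Ebp at chrX:16971212-16971511 on the plus strand, all in GRCr8.
Idi1: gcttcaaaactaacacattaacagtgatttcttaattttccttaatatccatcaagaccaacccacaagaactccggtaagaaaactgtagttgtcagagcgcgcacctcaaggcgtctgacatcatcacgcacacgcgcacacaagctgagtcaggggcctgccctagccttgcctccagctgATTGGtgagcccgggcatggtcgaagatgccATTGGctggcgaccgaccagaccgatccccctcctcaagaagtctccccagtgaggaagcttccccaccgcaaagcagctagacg
Nsdhl: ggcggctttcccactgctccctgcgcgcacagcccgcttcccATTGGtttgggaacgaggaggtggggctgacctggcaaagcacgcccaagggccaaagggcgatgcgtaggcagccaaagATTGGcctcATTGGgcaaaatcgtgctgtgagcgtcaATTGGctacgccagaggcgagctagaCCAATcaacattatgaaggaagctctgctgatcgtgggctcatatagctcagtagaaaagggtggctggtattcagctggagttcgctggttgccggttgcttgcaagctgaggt
Ebp: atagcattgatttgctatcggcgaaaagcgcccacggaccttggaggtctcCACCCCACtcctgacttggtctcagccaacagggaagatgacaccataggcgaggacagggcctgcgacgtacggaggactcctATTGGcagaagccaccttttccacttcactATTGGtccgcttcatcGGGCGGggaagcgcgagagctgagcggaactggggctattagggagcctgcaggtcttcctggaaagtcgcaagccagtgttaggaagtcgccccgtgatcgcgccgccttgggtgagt
Idi1, higher in SMiNs, held 2 CCAAT boxes, with their first bases at -66 and -35 relative to the start. Nsdhl, lower in SMiNs, held 5, from -208 to -65. Fdps, Ebp, Mvd and Tm7sf2 also held 2 CCAAT boxes. Fdps and Ebp were lower in SMiNs (-0.83 and -0.93), whereas Mvd and Tm7sf2 were slightly higher (0.05 and 0.18). Any link between the number of boxes and the differences was not tested. In Ebp the sterol regulatory element core began at -199 and was followed by 2 CCAAT boxes and 1 GC box.

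The fatty acid enzymes were lower in SMiNs in nearly every case. Of 13 measured, 4 were at least 2-fold lower (30.8%), namely Elovl6, Acsl1, Acsl4 and Fads1. None reached 2-fold in the other direction. Their median difference of -0.77 corresponds to a 1.71-fold lower signal. At a 1.5-fold threshold, 7 of 13 were lower (53.8%) and none was higher. By any amount, 12 of 13 were lower, the exception being Elovl1. These counts stand beside 17.9% (2-fold), 34.6% (1.5-fold) and 64.4% (any amount) lower among genes of similar signal. That set spans mean signals of 7.21 to 9.39, the quartiles of all measured members. Scd2, Fads1, Fads2, Elovl1 and Elovl5 were brighter than that on both arrays, so that the set is not matched to this branch. Among genes that reached the floor, 54.1% were lower by any amount. As 1 array stands for each condition, the shares were not tested against each other.

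**Figure D2:**
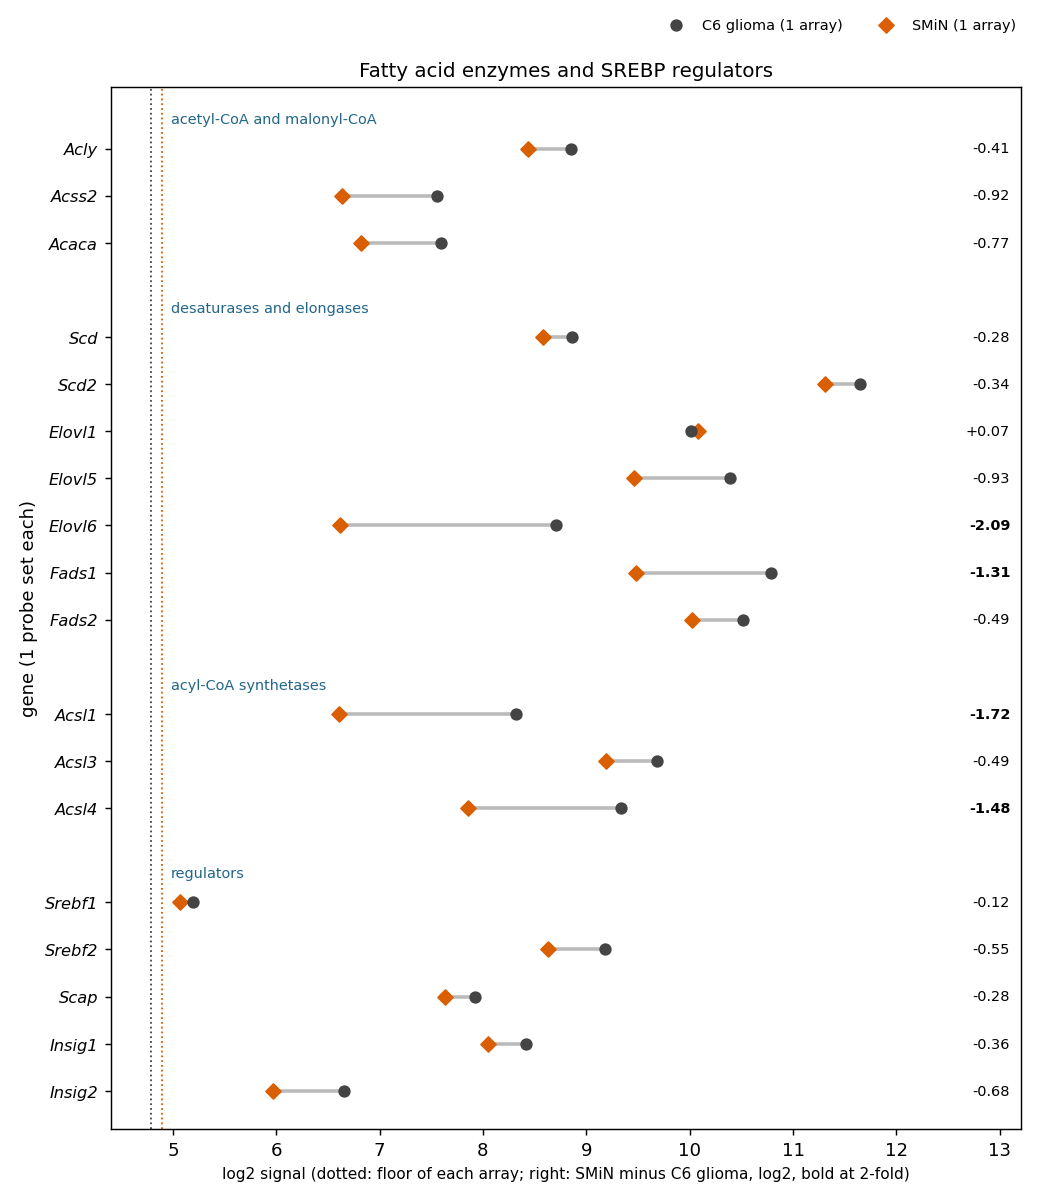
Log2 signal of the 13 measured fatty acid enzymes and the 5 regulators, with 1 array per condition (circles, C6 glioma; diamonds, SMiN), the floor of each array as dotted lines and the log2 difference at the right. Elovl6, Fads1, Acsl1 and Acsl4 were lower in SMiNs by 2-fold or more, and all 5 regulators were lower by less than 2-fold.

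The enzymes that supply acetyl-CoA and malonyl-CoA were lower by less than 2-fold. Acly, which cleaves citrate into cytosolic acetyl-CoA, had a log2 signal of 8.85 on the C6 array and 8.44 on the SMiN array, 1.33-fold lower. Acss2, which makes acetyl-CoA from acetate, had 7.55 and 6.63, 1.89-fold lower. Acaca, acetyl-CoA carboxylase, which makes malonyl-CoA and sets the pace of fatty acid synthesis, had 7.59 and 6.82, 1.71-fold lower.

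Elongases and desaturases differed from one another. Elovl6, which elongates palmitate to stearate, had a log2 signal of 8.71 on the C6 array and 6.62 on the SMiN array. This 4.25-fold lower signal was the largest difference of all 33 members, and 211 of the 11306 genes at or above the floor (1.87%) were as low or lower. Elovl5, which elongates polyunsaturated fatty acids, had 10.39 and 9.46, 1.91-fold lower. Elovl1, an elongase of very long saturated chains, had 10.01 and 10.08, and its difference was 4.45-fold apart from that of Elovl6. Fads1, the delta-5 desaturase, had 10.79 and 9.48, 2.47-fold lower. Its paralog Fads2, the delta-6 desaturase that acts before it, had 10.51 and 10.03, 1.40-fold lower, so that the differences of the paralogs were 1.77-fold apart. The stearoyl-CoA desaturases, which make oleate, were close to each other. Scd had 8.86 and 8.58, 1.22-fold lower, and Scd2 had 11.65 and 11.31, 1.27-fold lower.

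The Elovl5 promoter is printed because it was the only one of the 30 members' promoters with the full cAMP response element, the motif to which CREB factors bind downstream of forskolin. The motif was found in 1 of 11 fatty acid enzymes (9.09%), 0 of 14 sterol enzymes and 0 of 5 regulators. It was found in 3.08% of windows of genes at or above the floor, so that 1 match among 30 members is near that share. The window lies at chr8:87670914-87671213 on the plus strand in GRCr8, and capitals mark the searched motifs.
Elovl5: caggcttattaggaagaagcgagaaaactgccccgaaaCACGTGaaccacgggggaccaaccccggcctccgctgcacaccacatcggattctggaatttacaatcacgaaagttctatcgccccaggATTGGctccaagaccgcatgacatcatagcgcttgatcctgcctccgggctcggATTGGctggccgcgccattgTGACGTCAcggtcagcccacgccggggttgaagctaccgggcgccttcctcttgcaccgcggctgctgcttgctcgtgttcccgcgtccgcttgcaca
In this window an E-box began at -212, 2 CCAAT boxes at -122 and -68 and the cAMP response element at -48. The signal of Elovl5 was lower in SMiNs, and a part of the motif in this was not tested. Of the 11 fatty acid enzymes with a promoter, 7 held a CCAAT box (63.6%), beside 37.5% of the windows of genes at or above the floor. A GC box was found in 6 (54.5%) and an E-box in 1 (9.09%), near the 60.1% and 9.46% of those windows, whereas the sterol regulatory element core and the TCF/LEF motif were found in 0 of 11.

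Acyl-CoA synthetases, which activate fatty acids for lipid synthesis or oxidation, were all lower, by unequal amounts. Acsl1 had a log2 signal of 8.32 on the C6 array and 6.61 on the SMiN array, 3.29-fold lower, and 405 of 11306 genes (3.58%) were as low or lower. Acsl4, which prefers arachidonate, had 9.33 and 7.85, 2.79-fold lower. Acsl3, found on lipid droplets, had 9.68 and 9.19, 1.41-fold lower. The difference of Acsl1 was 2.33-fold apart from that of Acsl3, and that of Acsl4 was 1.98-fold apart from it.

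The regulators had the smallest median difference of the 3 groups. None of the 5 was at least 2-fold lower or higher, beside 17.9% lower and 7.56% higher among genes of similar signal. With 5 genes, these shares cannot be told apart from none. Their median difference was -0.36, near the -0.29 of genes of similar signal. At a 1.5-fold threshold 1 of 5 was lower (20.0%), beside 34.6% of those genes. Srebf2, which encodes the SREBP that chiefly drives sterol genes, had a log2 signal of 9.18 on the C6 array and 8.63 on the SMiN array, 1.46-fold lower. Srebf1, which encodes the SREBPs that drive fatty acid genes, had 5.19 and 5.07, close to the floor, a 1.09-fold lower signal. Scap, the escort protein, had 7.92 and 7.64, 1.22-fold lower. Insig1, itself an SREBP target, had 8.41 and 8.05, 1.28-fold lower, and Insig2 had 6.66 and 5.97, 1.61-fold lower. Cleavage of SREBPs, rather than their transcript level, sets much of their activity and was not measured by the arrays. Of the 5 regulator genes, 4 held a CCAAT box in a promoter window (80.0%), 4 a GC box (80.0%) and 2 an E-box, beside 37.5%, 60.1% and 9.46% of windows of genes at or above the floor.

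**Figure D3:**
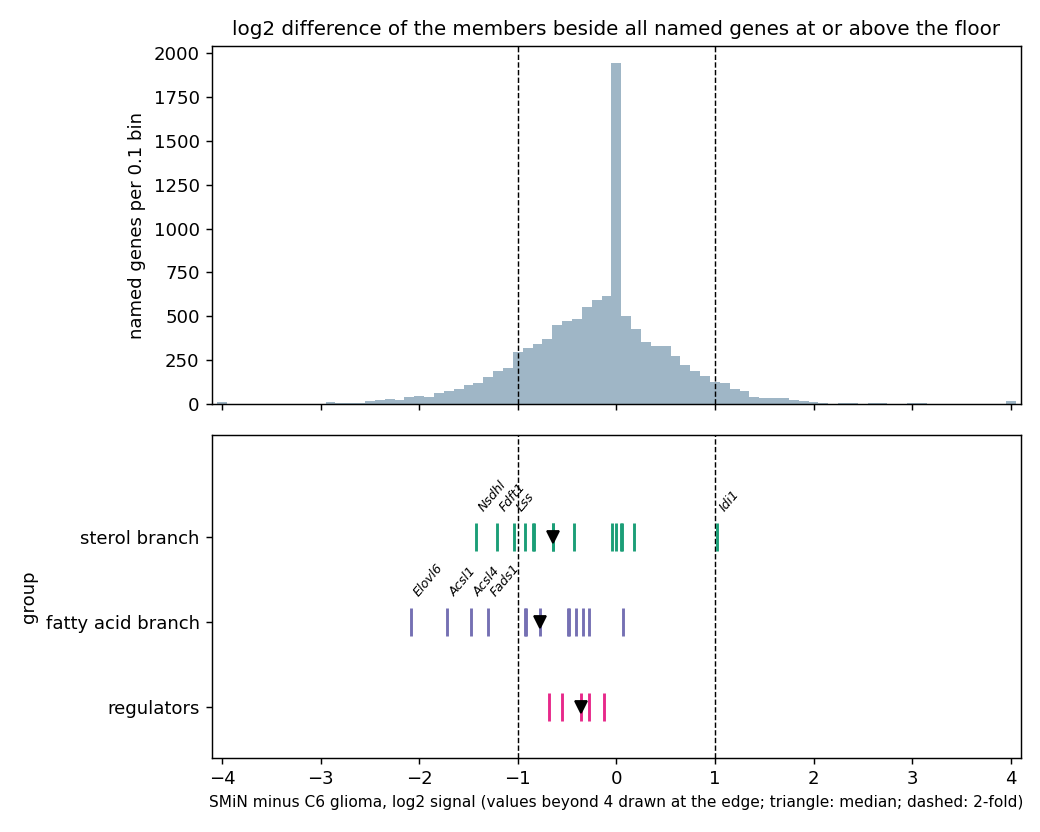
Upper panel, log2 difference (SMiN minus C6 glioma) of the 11306 named genes that reached the floor on either array, as genes per bin. Lower panel, the 33 measured members as ticks with the median of each group as a triangle (-0.64 for the sterol branch, -0.77 for the fatty acid branch and -0.36 for the regulators), and dashed lines at 2-fold.

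Over all 33 members, 27 were lower in SMiNs by any amount, 5 were higher and 1 was equal, beside 54.1% lower of genes that reached the floor and 64.4% of genes of similar signal. With median centring these counts were 30, 3 and 0, as Mvd, Cyp51 and Hsd17b7 turned slightly lower. The shares of other genes were not recounted under that centring, in which all exactly equal genes turn lower. The median difference of the members was -0.55. The median was -0.08 over the 11306 genes at or above the floor and -0.29 over genes of similar signal. The members closest to the 2-fold threshold were Idi1 (1.02) and Lss (-1.04) inside it and Ebp and Elovl5 (each -0.93) and Acss2 (-0.92) outside it. Idi1 was no longer 2-fold higher when each array was centred on its median (0.96), and Lss was no longer 2-fold lower under quantile normalization (-0.84). The other 6 members beyond 2-fold stayed beyond it under both scalings.

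Neighboring lipid pathways were described from lists of related genes, beside the 12.9% lower and 5.75% higher by 2-fold among genes that reached the floor and the 17.9% and 7.56% among genes of the members' signal range. Among 16 other sterol and isoprenoid enzymes the median was -0.35, with 2 genes lower by 2-fold or more (12.5%, beside 12.9%) and 0 higher. Of these 16, 3 were below the floor on both arrays. Over the other 13 the median was -0.38, with the same 2 genes lower. The lower genes were Lbr, given above, and Acat1, the mitochondrial acetoacetyl-CoA thiolase of ketone body metabolism (2.41-fold lower). Of 14 genes for SREBP processing, sterol sensing and liver X receptor (LXR) signaling, 2 were lower by 2-fold (14.3%) and 1 was higher (7.14%), near the 12.9% and 5.75%. Their median was -0.13. Mbtps1 and Mbtps2, the Golgi proteases that release SREBPs from the membrane, were 2.01-fold and 2.0-fold lower, with signals of 7.87 and 6.86 for Mbtps1 and 6.99 and 5.98 for Mbtps2. Both passed the threshold only narrowly and lay under it with quantile normalization (-0.78 and -0.83). Abca1, the cholesterol exporter that LXRs induce, was higher, with a log2 signal of 5.56 on the C6 array and 7.91 on the SMiN array, or 5.10-fold. Its relative Abcg1 had 7.01 and 7.38, and Mylip, another LXR target, had 5.49 on both arrays. As for Hsd17b7, this exact tie of Mylip was not read as an unchanged transcript.

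Intracellular cholesterol transport was covered by 13 genes with a median of -0.15, of which 3 were lower by 2-fold or more (23.1%, beside 12.9% and 17.9%) and 0 higher. These were the sterol transfer protein Gramd1b (2.33-fold), the caveolar protein Cav1 (2.16-fold) and the lipid transfer protein Osbpl5 (2.14-fold). Under quantile normalization Osbpl5 was just short of 2-fold (-0.99). Npc1, which exports cholesterol from lysosomes, had 7.19 and 7.96, 1.71-fold higher. Of 20 other genes of fatty acid supply and elongation, 2 were lower by 2-fold (10.0%, beside 12.9%) and 0 higher. Of these 20, 6 were below the floor on both arrays, and the median was 0 with them and -0.23 over the other 14. The lower genes were the acyl-CoA synthetase Acsl5 (2.28-fold) and Tecr, the reductase that completes each elongation cycle (2.02-fold). Neither reached 2-fold under quantile normalization (each -0.98).

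Of 24 genes of glycerolipid and phospholipid synthesis, 3 were at least 2-fold lower (12.5%) and 2 were at least 2-fold higher (8.33%), near the 12.9% and 5.75% of genes that reached the floor, with a median of -0.08. The lower genes were Pcyt1b, an isoform of the rate-limiting enzyme of phosphatidylcholine synthesis (4.46-fold), the acyltransferase Agpat2 (2.90-fold) and the phosphatidate phosphatase Lpin2 (2.84-fold). Pcyt1a, the other isoform beside Pcyt1b, had 6.35 in C6 glioma and 6.29 in SMiNs, a difference of -0.06. The higher genes were Cept1, which completes phosphatidylcholine and phosphatidylethanolamine (2.49-fold), and Pcyt2, which acts in phosphatidylethanolamine synthesis (2.0-fold, at the threshold and under it with median centring, 0.94). Of 26 fatty acid oxidation genes, 0 differed by 2-fold, beside 12.9% lower and 5.75% higher, with a median of 0 and values from -0.996 to 0.53. Of these 26, 4 were below the floor on both arrays. The lowest, Hadhb, a subunit of the mitochondrial trifunctional protein, narrowly missed the threshold and passed it with median centring (-1.06).

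**Figure D4:**
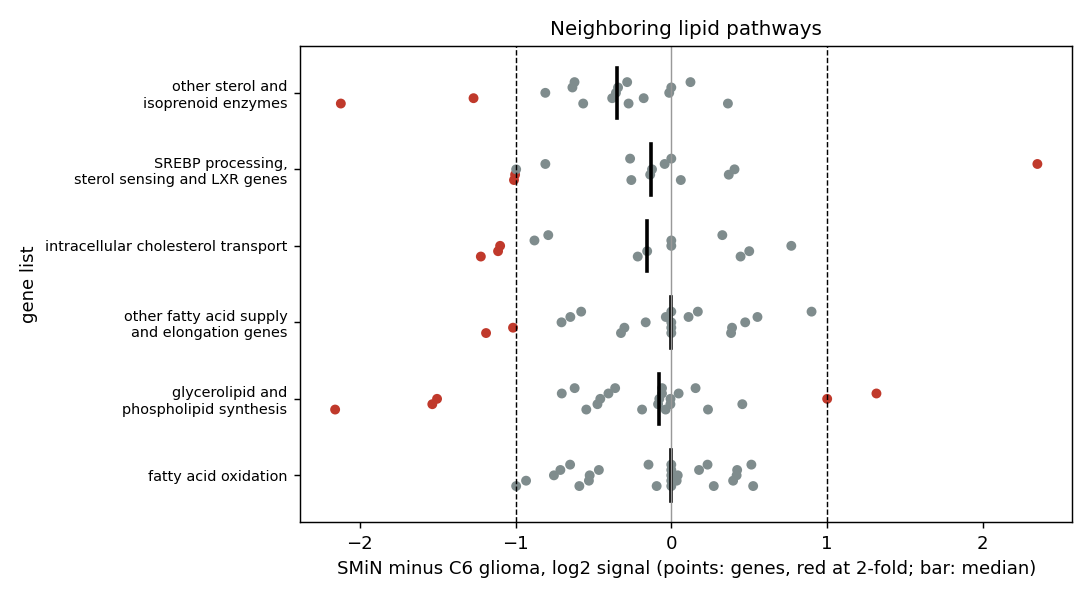
Log2 difference (SMiN minus C6 glioma) of the measured genes of 6 related lipid lists, with a point per gene (red at 2-fold or more), a bar at the median and dashed lines at 2-fold. Abca1 stands apart at 2.35, and 0 fatty acid oxidation genes lie beyond a dashed line in the deposited values, with Hadhb close to it at -0.996.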

How the data were processed

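The methods describe total RNA, a whole-transcript amplification kit, Affymetrix GeneChip hybridization, scanning and analysis with GeneChip Command Console Software. The authors deposited log2 signals per probe set, used here with no further scaling. How they were summarized and normalized, and on which genome build, is not given in the sources used here. Precision is limited by the number of arrays.

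Of 36685 probe sets, 18511 had 1 gene symbol in the platform annotation, 575 had several and 17599 were unnamed here. The Entrez number of 18394 was found in RefSeq, which changed 0 symbols. Where a gene had more than 1 probe set, the brightest by mean signal stood for it. A difference is SMiN minus C6 glioma on the log2 scale, and its fold is 2 to that power. Members and lists were chosen with earlier results of these data known. All members were named, and from each related list up to 3 genes each way beyond 2-fold. The other genes named from these lists, such as Abcg1, Mylip, Npc1 and Pcyt1a, were picked with their values known. Counts were checked on simulated data with known shifts. Promoter windows came from RefSeq (GRCr8). The alternatives were median centring, quantile normalization, values below the floor set to it, genes below it on both arrays left out, the mean of a gene's probe sets and a 1.5-fold threshold. Python 3.11.15, numpy 2.4.6, pandas 2.3.3 and matplotlib 3.10.9 were used.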

Additional observations from a re-analysis of the deposited data

How the results depend on the processing

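With 1 array per condition no replicate could be left out, and no result has an error. Under quantile normalization the median differences moved to -0.41 for the sterol branch, -0.55 for the fatty acid branch and -0.18 for the regulators, and 2 rather than 3 sterol enzymes were at least 2-fold lower, without Lss (-0.84). With each array centred on its median, 0 sterol enzymes were at least 2-fold higher, since Idi1 was at 0.96. Of all named genes, 9.23% were then lower and 3.78% higher by 2-fold. A 1.5-fold threshold gave 8 sterol enzymes, 7 fatty acid enzymes and 1 regulator lower in the deposited values, which follows from the wider threshold. Under quantile normalization Sqle (-0.577), Dhcr7 (-0.412), Acaca (-0.545) and Insig2 (-0.531) fell short of 1.5-fold. The share of other genes at 1.5-fold was not recounted under that scaling. No member's difference of 2-fold or more changed sign under any alternative. Setting values below the floor to the floor, leaving out genes below it on both arrays and averaging probe sets changed no value of the members, since all 33 lay above the floor with 1 probe set each. Values set to the floor moved the shares of all named genes to 7.63% lower and 3.09% higher by 2-fold, and their median difference to 0.10. For directions by any amount and for the related lists, the alternatives were chosen after seeing the data. Under quantile normalization 0 of 14 SREBP processing, sterol sensing and LXR genes and 0 of 20 other fatty acid supply genes were lower by 2-fold, and the medians of the former list (0.02) and of the phospholipid list (0.09) turned positive. Directions of differences well under 2-fold can turn with the scaling.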
